A study of Mus musculus with 6 samples.

Results

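The adrenergic receptors (adrenoceptors) of autonomic ganglia were examined by counting the transcripts of 8 receptor genes, Adra1a, Adra1b, Adra1d, Adra2a, Adra2b, Adra2c, Adrb1 and Adrb3, in neurons, glial cells and the cells of blood vessels. The genes were chosen by symbol and by no rule on their measured values, although earlier results of these data were known. They come from the 32285 genes listed in the count matrices, and all 8 were listed in each of the 6 libraries. In the named cell classes the receptors gave 22153 UMIs (unique molecular identifiers, each counting 1 captured transcript), of which 96.2% came from the 3 alpha2 genes and 91.2% from Adra2a and Adra2c alone. Each UMI marks the 3′ end of a transcript, whose capture differs between genes, so levels are compared below within a gene and not between genes.

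Adrenoceptors are G protein-coupled receptors for noradrenaline and adrenaline. The alpha1 receptors act through Gq and phospholipase C and contract vascular smooth muscle, the alpha2 receptors act through Gi and Go to lower cyclic AMP and to inhibit calcium channels, and the beta receptors act through Gs to raise cyclic AMP. On postganglionic sympathetic neurons alpha2 receptors are known as autoreceptors that restrain noradrenaline release, while on vessels they add to constriction.

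The samples were whole ganglia of postnatal day 5 pups that carried a Cre driver and the RosatdT reporter, a genotype common to every library, so that no wild-type or untreated group stood beside them. RosatdT is a red fluorescent reporter that Cre switches on, and no sort on it is described. The ganglia were the stellate ganglion and the lumbar chain (paravertebral sympathetic), the coeliac complex (prevertebral sympathetic), the pelvic ganglion and, of the parasympathetic ganglia, the sphenopalatine. They were processed in 2 rounds that also differ in 10x chemistry, version 2 for Stellate, Sphenopalatine and Pelvic replicate 1 and version 3 for Coeliac, Lumbar and Pelvic replicate 2, and pups of both sexes were combined. Only the pelvic ganglion had 2 libraries, so levels are set side by side across ganglia without a test, and ganglion cannot be told apart from library.

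After filtering, 21442 droplets remained, with a median of 5814 UMIs per droplet in the shallowest library and 18528.5 in the deepest. They included 6987 neurons, 8273 glia-like cells, 725 endothelial-like cells and 611 mural-like cells (pericytes and smooth muscle of vessel walls), besides 3277 fibroblast-like and 572 macrophage-like cells. The classes carried their defining genes in all 6 libraries: the neuronal gene Stmn2 stood at 3611 to 6430 UMI counts-per-million (CPM) in neurons, the glial gene Fabp7 at 3681 to 8827 CPM in glia, the endothelial gene Pecam1 at 768 to 1152 CPM in endothelial cells and the mural gene Rgs5 at 1407 to 4926 CPM in mural cells. Stmn2 was also counted in every other class, and in glia it amounted to 2.99% to 18.4% of its level in neurons, with Stellate highest. Free RNA of neurons is a possible source, which was not tested. Stmn2 also differed within a class. In Pelvic replicate 1 an endothelial cluster of 47 cells held it at 1214 CPM with Th at 0, and another, of 176 cells, at 181 CPM. Depth, the share of Stmn2 in glia and chemistry moved with the libraries, and their part in differences between libraries was not tested. In all, 122 cell barcodes occurred in more than 1 library.

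**Figure D1:**
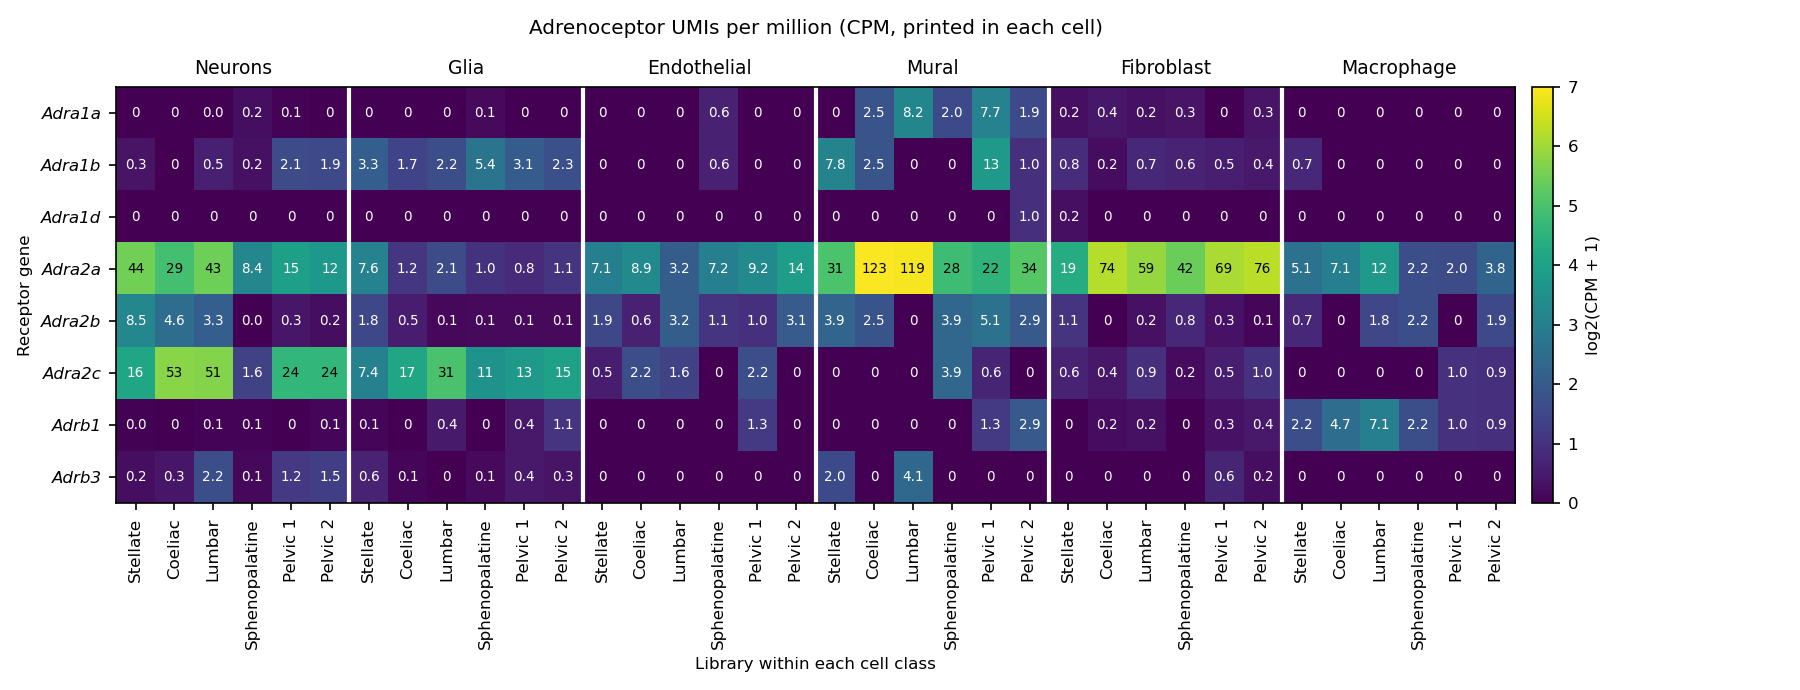
Heat map of the UMI counts-per-million (CPM) of each of the 8 receptor genes (rows) in each library (columns, grouped by cell class); the colour gives log2(CPM + 1) and the printed number the CPM. Adra2a is bright in neurons, mural cells and fibroblasts, Adra2c in neurons and glia, and the other 6 genes stay at 12.8 CPM or below in every class and library.

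Adra2a (ENSMUSG00000033717, chromosome 19:54044151-54048982, plus strand, GRCm38) encodes the alpha2A receptor. In neurons it stood at 44.4 CPM in Stellate, 42.9 CPM in Lumbar, 29.0 CPM in Coeliac, 14.5 CPM in Pelvic replicate 1, 12.4 CPM in Pelvic replicate 2 and 8.40 CPM in Sphenopalatine. The 3 sympathetic libraries lay above both pelvic libraries, and Sphenopalatine lay lowest. By exact Poisson intervals, which cover counting error only, the neighbours Stellate and Lumbar overlapped, as did the pelvic pair, and the other neighbours in this order did not. The libraries differed in transmitter classes, which are named below. Most pelvic neurons were cholinergic-like, and the noradrenergic-like ones stood at 26.3 and 27.0 CPM. All Coeliac neurons were noradrenergic-like.

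In glia Adra2a stood between 0.775 CPM in Pelvic replicate 1 and 7.56 CPM in Stellate, below the neurons of the same library in every case. Neurons exceeded glia by 3.75 ± 0.471 on the log2 scale (SE, adjusted p = 4.07e-07, edgeR's quasi-likelihood test over 24 sums from the 6 libraries, with Benjamini-Hochberg adjustment over all genes tested). As a share of the neuronal level, glial Adra2a was 4.03% to 17.0%, against 2.99% to 18.4% for Stmn2; it lay below the share of Stmn2 in Stellate, Coeliac and Pelvic replicate 1 and above it in the other 3 libraries. The order depends on the neuronal gene used. In Sphenopalatine glial Adra2a (12.3%) lay below the share of Th (20.9%), which stood at only 1.85 CPM in neurons there. It lay above the shares of Stmn2 (10.0%) and of the cholinergic gene Slc5a7 (5.15%, with 298 CPM in neurons). Whether glial Adra2a exceeds free RNA was not tested. In that comparison 4 of the 8 receptors had enough counts to be tested and 3 passed, where 74.3% of all genes passed. Adra1a, Adra1d, Adrb1 and Adrb3 fell below the filter on low counts and are given below by their UMIs.

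In the vessels, mural cells held Adra2a at 123 CPM in Coeliac (49 UMIs), 119 CPM in Lumbar (29 UMIs), 34.3 CPM in Pelvic replicate 2, 31.2 CPM in Stellate, 27.6 CPM in Sphenopalatine and 22.4 CPM in Pelvic replicate 1. All 6 mural sums lay above the endothelial sum of the same library, where Adra2a ranged from 3.21 to 13.8 CPM. Mural cells exceeded endothelial cells by 2.38 ± 0.511 on the log2 scale (adjusted p = 0.000856, edgeR), in a comparison in which 40.7% of genes passed and 2 of the 4 tested receptors did. Within the 3 libraries of round 1 alone the difference was 1.63 with an adjusted p of 0.0738 in edgeR. Endothelial cells in turn exceeded glia by 2.36 ± 0.543 (adjusted p = 0.000934), where 58.1% of genes passed and all 4 tested receptors did, 2 in each direction. The 8 mural markers moved with this call: their summed level was 46.5 to 67.2 CPM in glia, 373 to 1278 CPM in endothelial cells and 9512 to 16278 CPM in mural cells. As a share of the mural level, endothelial Adra2a was 22.6% to 41.3% in Stellate, Sphenopalatine and the pelvic libraries, above the 3.02% to 7.85% of the markers there, and lay below the markers in Coeliac (7.28% against 8.54%) and Lumbar (2.69% against 5.51%).

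Mural Adra2a exceeded neuronal Adra2a in 5 of 6 libraries, at 423% of the neuronal level in Coeliac, 329% in Sphenopalatine, 278% in Pelvic replicate 2, 277% in Lumbar and 154% in Pelvic replicate 1, and it lay below it in Stellate (70.3%). The log2 difference of 0.99 ± 0.441 had an adjusted p of 0.0530 in edgeR, just outside the threshold of 0.05. It passed under 8 other settings, among them DESeq2 (1.18, adjusted p = 0.0214) and the fit without Stellate (1.31, adjusted p = 0.00465). It did not pass under the others, with an adjusted p of 0.105 without Coeliac and 0.561 in the libraries of round 1. In this comparison of mural cells with neurons 68.1% of genes passed, and 2 of the 4 tested receptors did. Stmn2 in mural cells was 0.949% to 16.1% of its neuronal level.

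Adra2c (ENSMUSG00000045318, chromosome 5:35278319-35281763, plus strand, GRCm38), which encodes the alpha2C receptor, showed another order of ganglia. In neurons it stood at 53.1 CPM in Coeliac, 50.8 CPM in Lumbar, 24.0 CPM in each pelvic library, 16.4 CPM in Stellate and 1.61 CPM in Sphenopalatine. Stellate, which led for Adra2a, lay below both pelvic libraries for Adra2c, and Sphenopalatine was again lowest. The intervals of Coeliac and Lumbar overlapped, those of the pelvic pair overlapped, and the remaining neighbours lay apart.

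Glia also held Adra2c, at 30.7 CPM in Lumbar, 16.8 CPM in Coeliac, 15.2 CPM in Pelvic replicate 2, 12.7 CPM in Pelvic replicate 1, 10.8 CPM in Sphenopalatine and 7.36 CPM in Stellate. The glia of Coeliac include a cluster of 248 cells whose 10 leading genes included Mcpt2, Cma1 and Cpa3, known from mast cells, although all 6 glial markers named it and Sox10 stood at 364 CPM. Without it Coeliac glia held 18.6 CPM of Adra2c, and no call on a receptor changed. A glial cluster of 451 cells in Sphenopalatine also had Cma1 and Tpsb2 among its leading genes, and held 2.92 CPM. In Lumbar a cluster of 44 cells, of which 88.6% were neurons by the threshold, had Mcpt2, Cma1 and Cpa3 among its own. The fits without those cells were not made. Glial Adra2c, with all glia kept, was 31.6% to 672% of the neuronal level, above the share of Stmn2 in all 6 libraries. Neurons exceeded glia in 5 libraries, and in Sphenopalatine glia stood 6.72 times above neurons. Over all 6 libraries the log2 difference was 0.85 ± 0.406 and did not pass (adjusted p = 0.0639, edgeR); without Sphenopalatine it was 1.09 with an adjusted p of 0.000254.

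Vessels held little Adra2c. Mural cells gave 3 UMIs in all, with 4 of 6 libraries at 0, and endothelial cells gave 14 UMIs, at most 2.23 CPM. Mural cells lay below neurons (adjusted p = 4.68e-05) and endothelial cells below glia (log2 difference -3.76 ± 0.656, adjusted p = 5.35e-05, edgeR). Mural and endothelial cells could not be told apart for Adra2c at this depth (adjusted p = 0.805).

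Adra2b (ENSMUSG00000058620, chromosome 2:127363208-127367221, plus strand, GRCm38), the alpha2B receptor gene, gave the fewest UMIs of the alpha2 genes, 1099, 1013 of them in neurons. Neurons held 8.51 CPM in Stellate, 4.62 CPM in Coeliac, 3.27 CPM in Lumbar, 0.334 CPM in Pelvic replicate 1, 0.191 CPM in Pelvic replicate 2 and 0.0133 CPM, a single UMI, in Sphenopalatine. Taken over all neurons, the 3 sympathetic libraries lay apart from the other 3, but the libraries differed in transmitter classes. Noradrenergic-like pelvic neurons held 2.32 CPM in replicate 1 (12 UMIs) and 1.59 CPM in replicate 2 (6 UMIs). Those of Lumbar held 3.44 CPM and those of Stellate 8.71 CPM. The part of transmitter class in this order was not tested. Glia ranged from 0.106 to 1.84 CPM, and neurons exceeded glia by 2.49 ± 0.803 on the log2 scale (adjusted p = 0.00848, edgeR), a call that was lost without Coeliac (adjusted p = 0.0558) or without Lumbar (adjusted p = 0.0667). In vessels, 22 endothelial and 16 mural UMIs were found. Endothelial cells exceeded glia (2.55 ± 1.06, adjusted p = 0.0455), and this call was lost under 7 of the other settings, with adjusted p up to 0.493 in the libraries of round 1.

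Just upstream of the start that RefSeq gives for Adra2a and for Adra2c lies an exact CACGTG, the canonical E-box bound by many basic helix-loop-helix proteins. The stretches are shown because these are the genes that hold most of the receptor UMIs; the motif was picked after the sequences were seen. Each is 30 bases of GRCm38.p6 on the plus strand, with the motif in capitals, and GENCODE M21 annotates both stretches as exon and UTR of longer transcripts of the same genes. The positions are chr19:54045167-54045196 for Adra2a, with 74 bases from the motif to the start, and chr5:35278402-35278431 for Adra2c, with 146 bases.
Adra2a: gggtcgacttccCACGTGggggctgacgcc
Adra2c: caactcaggccaCACGTGacagaacctctg
The motif reads the same on both strands. It occurs in 6.02% of the 32851 RefSeq promoters searched over the same 250 bases before the start, and it was not found in that window of Adra2b. RefSeq promoters were matched for 5 of the 8 receptors.

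The share of single neurons with UMIs of both major receptors ranged widely between libraries. UMIs of Adra2a, Adra2c or both were found in 91.0% of Lumbar neurons, 84.8% in Coeliac, 72.8% in Pelvic replicate 2, 67.6% in Pelvic replicate 1, 66.2% in Stellate and 20.6% in Sphenopalatine. Both together were found in 62.0%, 49.4%, 38.5%, 23.0%, 20.0% and 1.66% of neurons in the same order. The deeper libraries of round 2 took the first 3 places. The share with both was not taken at equal depth, and 14.4% of neurons had mostly simulated doublets as neighbours. With each neuron thinned to 4000 UMIs, the share with an Adra2a UMI ran from 2.79% to 13.0% over the 6 libraries in place of 16.4% to 67.0%, and in glia, thinned to 2000 UMIs, it was at most 1.51%.

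Within a ganglion, Adra2a also varied among clusters of neurons. In Stellate the 15 clusters ran from 19.4 to 105 CPM: highest was a cholinergic-like cluster of 26 neurons led by Slc18a3, Vip and Sst (105 CPM), followed by the noradrenergic-like cluster led by Gng8 and Nwd2 (95.7 CPM) and the other cholinergic-like cluster, of 28 neurons (91.5 CPM), while the cluster led by Npy (21.1 CPM) stood low. In Lumbar the 9 clusters ran from 11.6 to 98.6 CPM, and the cluster led by Gng8 and Nwd2 was highest there. In Sphenopalatine 2 of 13 clusters, led by Calcb and Adgrg6 (39.7 CPM) and by Npy and Cited1 (31.8 CPM), stood highest, and the other 11 lay between 0 and 10.7 CPM. Adra2c ran from 4.86 to 23.6 CPM within Stellate and did not exceed 5.26 CPM in any Sphenopalatine cluster. The clusters were formed without the receptor genes and are described here without a test.

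**Figure D2:**
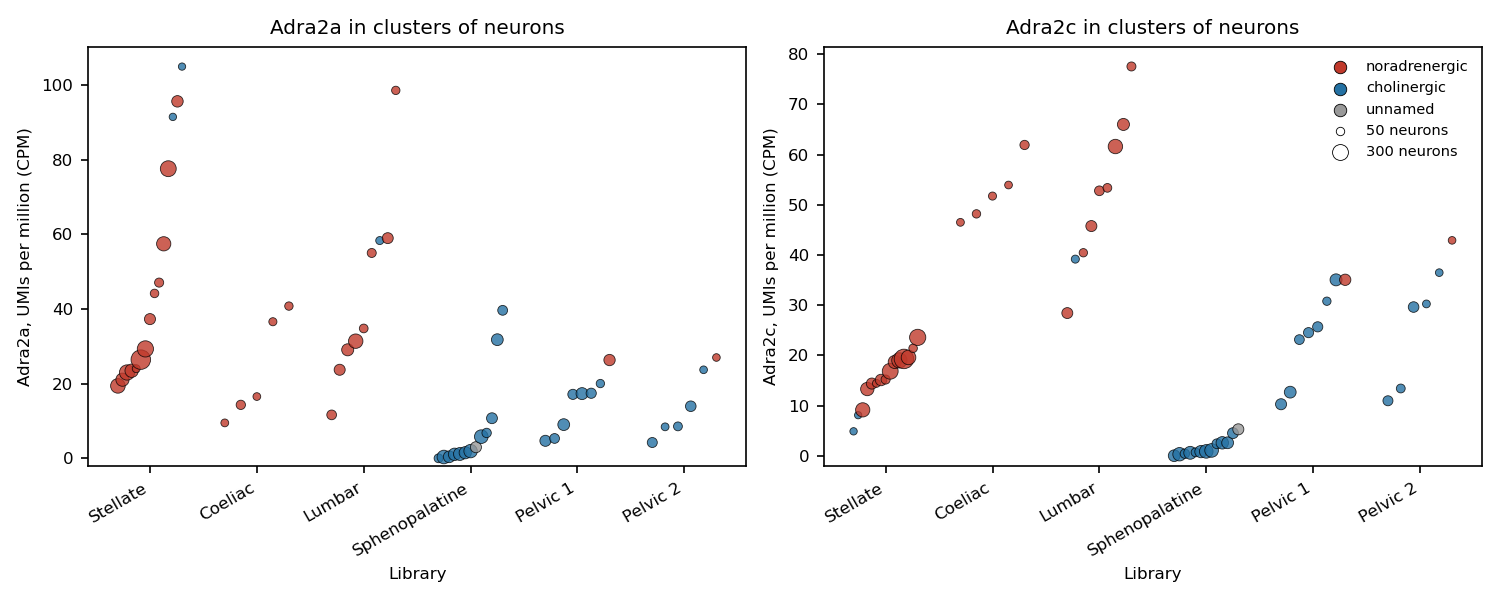
CPM of Adra2a (left) and Adra2c (right) in every cluster of neurons of each library; each point is a cluster, its area grows with the number of neurons, and its colour gives the transmitter class. Adra2a reaches 105 CPM in a cholinergic-like Stellate cluster and 98.6 CPM in a noradrenergic-like Lumbar one, while Adra2c stays at or below 5.26 CPM in Sphenopalatine.

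Transmitter classes were compared in the 4 libraries that held both. Noradrenergic-like clusters were named from Th, Dbh, Slc6a2 and Slc18a2, which make and carry noradrenaline. Cholinergic-like clusters were named from Chat, Slc18a3 and Slc5a7, which do the same for acetylcholine. The cholinergic rule was applied first and asked for at least 2 of its 3 genes at 100 CPM or more, with all 3 detected. Clusters that failed it were named noradrenergic-like if at least 3 of the 4 noradrenergic genes reached 100 CPM. In the pelvic ganglion Adra2a stood at 26.3 CPM in the 130 noradrenergic-like and 12.6 CPM in the 743 cholinergic-like neurons of replicate 1, and at 27.0 CPM in 33 against 10.7 CPM in 331 neurons of replicate 2. The classes did not overlap between replicates, and the noradrenergic-like one was higher by 1.18 ± 0.177 on the log2 scale (adjusted p = 6.44e-10, edgeR). The fit leaves 1 residual degree of freedom and takes its spread largely from all genes.

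Pelvic Adra2c followed the same direction, at 35.0 against 22.1 CPM in replicate 1 and 42.9 against 21.8 CPM in replicate 2 (log2 difference 0.80 ± 0.159, adjusted p = 7.42e-06, edgeR). Adra2b gave 12 UMIs in noradrenergic-like against 0 in cholinergic-like neurons of replicate 1. Its noradrenergic-like level was 23.9-fold the level that the 0 allows, without the counting error of the 12 UMIs. In replicate 2 it gave 6 UMIs against 1, a ratio of 52.1 with a counting interval of 6.32 to 2398. Over both replicates the adjusted p was 6.88e-10 (edgeR). All 5 receptors tested in the pelvic comparison passed, 3 higher and 2 lower in noradrenergic-like neurons, where 21.5% of all genes passed.

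In the sympathetic ganglia Adra2a went the other way, although the classes were not alike: the cholinergic-like clusters of Stellate held Th at 619 and 209 CPM and Dbh at 251 and 1061 CPM, and that of Lumbar 17.4 and 554 CPM, against 0 to 13.6 CPM of Th and 1.98 to 76.0 CPM of Dbh in the pelvic ones. Both cholinergic-like clusters of Stellate, with Slc6a2 at 211 and 277 CPM, also met the noradrenergic rule. They were named cholinergic-like because that rule was applied first, and Chat stood at 4.05 and 26.0 CPM in them. The part of these noradrenergic transcripts in the result was not tested. A further Stellate cluster, of 199 neurons, had Vip, Cartpt and Sst among its leading genes but was named noradrenergic-like. It held Th at 556 CPM, Slc18a3 at 16.4 CPM, Slc5a7 at 14.2 CPM and Adra2a at 23.5 CPM (53 UMIs). The result with that cluster counted as cholinergic-like was not tested. Stellate held 42.8 CPM in 2657 noradrenergic-like and 97.9 CPM in 54 cholinergic-like neurons, and Lumbar held 42.1 CPM in 887 and 58.4 CPM in 42. A fit of these 2 libraries, added after the values were seen, gave a log2 difference of -0.78 ± 0.194 (adjusted p = 0.0137, edgeR; 11.8% of genes and 4 of 5 tested receptors passed). Adra2c and Adra2b kept the pelvic direction there, at 16.8 against 6.39 CPM in Stellate and 51.4 against 39.2 CPM in Lumbar for Adra2c (0.80 ± 0.254, adjusted p = 0.0498), and at 8.71 against 2.13 CPM and 3.44 against 0.259 CPM for Adra2b (2.60 ± 0.554, adjusted p = 0.00440).

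The difference between the differences was then tested over the same 4 libraries, in a test also added after the values were seen. For Adra2a the noradrenergic minus cholinergic log2 difference was 1.96 ± 0.273 larger in pelvic than in stellate and lumbar neurons (adjusted p = 0.00326, edgeR), and 5.15% of all genes passed this test. It passed under each of its 7 alternatives, with values from 1.61 to 2.29. Adra2a was the 1 receptor of 5 that passed; Adra2b differed by 4.00 ± 1.22 (adjusted p = 0.111) and Adra2c by 0.05 ± 0.306 (adjusted p = 0.972).

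**Figure D3:**
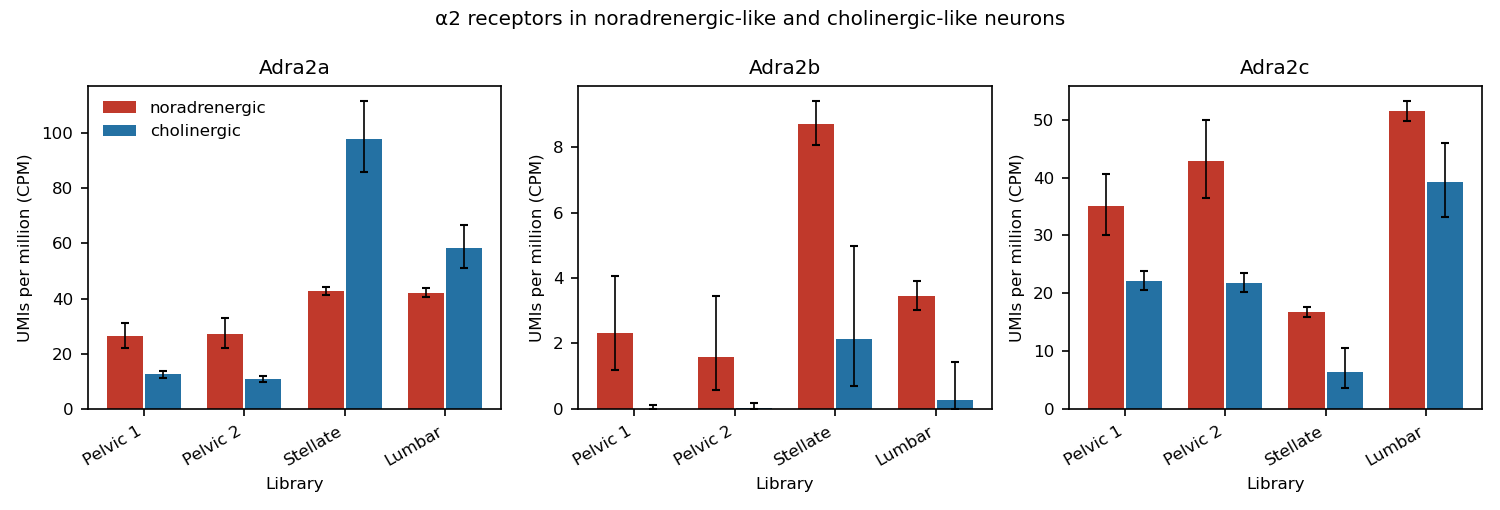
CPM of Adra2a, Adra2b and Adra2c (panels, each with its own scale from 0) in noradrenergic-like and cholinergic-like neurons of the 4 libraries that held both; bars are the summed counts of a class in a library and the lines are exact 95% Poisson intervals. For Adra2a the noradrenergic-like bar is higher in both pelvic libraries and lower in Stellate (42.8 against 97.9 CPM) and Lumbar.

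The pelvic neurons also fell into clusters that carried markers of the classes P1 to P4 used by the study. Adra2a stood at 6.87 and 6.75 CPM in P1 (replicates 1 and 2), 17.3 and 13.9 CPM in P2, 26.3 and 27.0 CPM in P3, which is the noradrenergic-like class, and 20.0 and 23.7 CPM in P4. Adra2c stood at 14.2 and 15.4 CPM in P1, 35.0 and 29.6 CPM in P2, 35.0 and 42.9 CPM in P3 and 30.8 and 36.5 CPM in P4. For both receptors P1 was the lowest class in each replicate, and P2 and P4, though cholinergic-like, lay closer to P3 than to P1 for Adra2c. For Adra2a, in CPM, the same held for P4 in both replicates and for P2 in replicate 1 only. P1 made up 352 of the 743 cholinergic-like neurons of replicate 1 and 189 of the 331 of replicate 2. Its part in the difference between the pelvic transmitter classes was not tested. P1 was not uniform for Adra2c. Its cluster with Cartpt and Nrn1 among the leading genes held 23.1 CPM in replicate 1 and 30.2 CPM in replicate 2. The other P1 clusters held 10.3 to 13.4 CPM. A further 191 neurons of replicate 1 were in clusters given no pelvic name.

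Glial clusters differed in Adra2c. The clusters with Fabp7, a gene of immature and satellite glia, among their 10 leading genes held 43.6 CPM in Lumbar, 29.5 CPM in Pelvic replicate 2, 28.3 CPM in Coeliac, 21.0 CPM in Pelvic replicate 1, 16.1 CPM in Sphenopalatine and 9.64 CPM in Stellate. Those with Kcna1, a potassium channel gene that shared its list with Bcas1 in every library, held 5.98, 2.79, 2.01, 2.16, 2.92 and 2.95 CPM in the same order. The first group was higher than the second in 6 of 6 libraries, and the intervals, which cover counting error only, did not overlap in any. Glial clusters in neither group varied too. In Lumbar one led by Ung and Mcm3 held 54.0 CPM (53 UMIs), above the Fabp7-led cluster, and one led by Cenpf and Top2a held 8.87 CPM. The Kcna1-led cluster of Sphenopalatine also had Cma1 and Tpsb2 among its leading genes. The neuronal gene Stmn2 was also higher in the first group, at 376 against 112 CPM in Coeliac, 270 against 112 CPM in Lumbar and 192 against 114 CPM in Pelvic replicate 2, and by less in the round 1 libraries (884 against 879 CPM in Stellate). Its part in the result was not tested. The clusters were formed with all other genes in view and singled out after the values were seen, so no test is given.

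Mural clusters differed as well in the pelvic ganglion, the only one with more than 1 kind of mural cluster. Clusters with Rgs5, a pericyte gene, among their leading genes held Adra2a at 41.2 CPM (24 UMIs) in replicate 1 and 61.1 CPM (36 UMIs) in replicate 2. Those with Rergl, a gene of arterial smooth muscle, held 3.62 CPM (3 UMIs) and 0 UMIs, which allows up to 6.52 CPM. Another cluster, 26 cells of replicate 1 led by Colec11 and Actg2 and rich in the smooth muscle gene Acta2 (15678 CPM, against 15365 CPM in the Rergl-led cluster), held 52.0 CPM (8 UMIs), so that the Acta2-rich clusters did not share 1 level. Colec11 was also among the leading genes of the Rgs5-led cluster of replicate 2, so the Rgs5-led cells of the 2 replicates may differ in make-up. These mural clusters too were singled out after their values were seen.

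**Figure D4:**
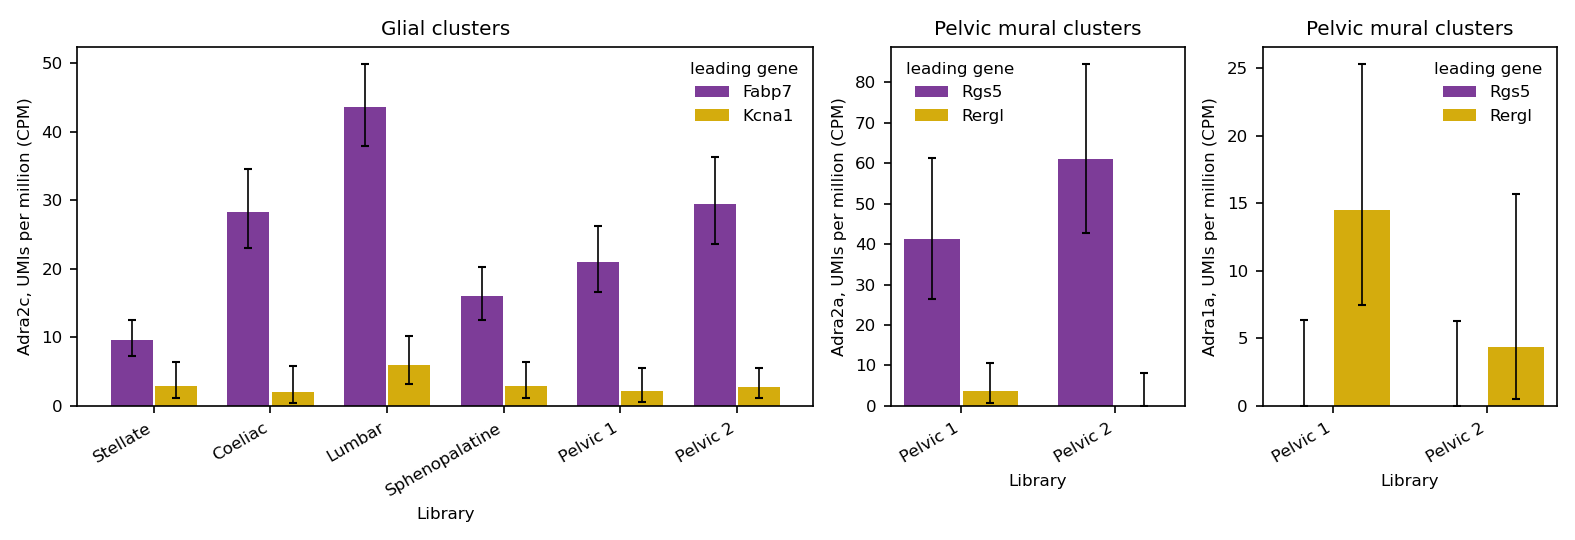
CPM of Adra2c in Fabp7-led and Kcna1-led glial clusters of each library (left), and of Adra2a (middle) and Adra1a (right) in Rgs5-led and Rergl-led mural clusters of the pelvic libraries; lines are exact 95% Poisson intervals and an absent bar is a count of 0. Adra2c is higher in Fabp7-led glia in all 6 libraries, and in the mural clusters Adra2a is higher in the Rgs5-led cells of both replicates, while Adra1a rests on 12 and 2 UMIs in the Rergl-led cells.

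The alpha1 genes were sparse. Adra1b (ENSMUSG00000050541, chromosome 11:43774606-43901210, minus strand, GRCm38), the alpha1B receptor gene, gave 427 UMIs and was found in glia of every library, at 5.42 CPM in Sphenopalatine, 3.29 CPM in Stellate, 3.10 CPM in Pelvic replicate 1, 2.27 CPM in Pelvic replicate 2, 2.22 CPM in Lumbar and 1.66 CPM in Coeliac. In neurons it stood at 2.06 and 1.94 CPM in the pelvic libraries, at 0.539 CPM in Lumbar, 0.291 CPM in Stellate and 0.240 CPM in Sphenopalatine, and at 0 UMIs in Coeliac. Glia exceeded neurons in all 6 libraries, by only 1.51 and 1.17 times in the pelvic pair, and the log2 difference of neurons minus glia was -2.02 ± 0.571 (adjusted p = 0.00331, edgeR). Within round 2 alone it was -1.48 with an adjusted p of 0.128.

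Pelvic Adra1b was highest in P2, with 5.47 and 4.55 CPM in replicates 1 and 2, against 0.893 and 1.18 CPM in P1, 0.194 and 0.530 CPM in P3, and 0.489 and 0.296 CPM in P4. P2 held 30 of the 74 neuronal UMIs of replicate 1, the clusters with no pelvic name stood at 3.00 and 3.84 CPM, and 1 cluster of P1 reached 2.68 CPM in replicate 1 and 2.24 CPM in replicate 2. Its level was lower in noradrenergic-like than in cholinergic-like pelvic neurons (-2.73 ± 0.680, adjusted p = 0.000505, edgeR), a call that DESeq2 did not make (adjusted p = 0.189). Within glia the Fabp7-led clusters held 2.60 to 6.75 CPM and the Kcna1-led ones 0 to 1.96 CPM.

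In mural cells Adra1b gave 26 UMIs, 20 of them in Pelvic replicate 1 (12.8 CPM) and 4 in Stellate (7.81 CPM), with Sphenopalatine and Lumbar at 0. Of the 20 UMIs, 10 came from the 26 cells led by Colec11 (65.0 CPM), and without them Pelvic replicate 1 stood at 7.09 CPM. Endothelial cells gave 1 UMI. Mural cells passed against endothelial cells (adjusted p = 0.00458) and against neurons (2.25 ± 0.801, adjusted p = 0.0176, edgeR), but without Pelvic replicate 1 the adjusted p rose to 0.107 and 0.174, and without Stellate the second rose to 0.0776. Without the 26 cells they were 0.0117 and 0.0660. Endothelial cells lay below glia (adjusted p = 0.00153).

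Adra1a (ENSMUSG00000045875, chromosome 14:66635251-66771168, plus strand, GRCm38), the alpha1A receptor gene, gave 47 UMIs, 18 in mural cells and 18 in neurons, although 611 mural cells and 6987 neurons were sampled. Mural cells stood at 8.21 CPM in Lumbar (2 UMIs), 7.67 CPM in Pelvic replicate 1 (12 UMIs), 2.50 CPM in Coeliac, 1.97 CPM in Sphenopalatine, 1.91 CPM in Pelvic replicate 2 and 0 in Stellate. In the pelvic ganglion its mural UMIs lay in the Rergl-led clusters, at 14.5 CPM (12 UMIs) and 4.35 CPM (2 UMIs), with none in the Rgs5-led ones, which allows up to 5.15 and 5.09 CPM, so that replicate 2 does not settle the direction. Of the 18 neuronal UMIs 15 were in Sphenopalatine. Adra1d (ENSMUSG00000027335, chromosome 2:131545850-131562283, minus strand, GRCm38), the alpha1D receptor gene, gave 2 UMIs, 1 in a mural cell and 1 in a fibroblast.

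Of the beta receptors, Adrb3 (ENSMUSG00000031489, chromosome 8:27225776-27250616, minus strand, GRCm38), best known for lipolysis in fat and for relaxing the bladder, gave 308 UMIs, 286 in neurons. Neurons stood at 2.18 CPM in Lumbar, 1.48 and 1.22 CPM in Pelvic replicates 2 and 1, 0.334 CPM in Coeliac, 0.202 CPM in Stellate and 0.107 CPM in Sphenopalatine. In Lumbar the 42 cholinergic-like neurons held 13.2 CPM (51 UMIs) and the 887 noradrenergic-like ones 1.56 CPM (107 UMIs). In the pelvic ganglion Adrb3 stood at 8.79 and 5.04 CPM in P4 and at 1.51 and 1.84 CPM in P1, while P2 gave 1 UMI in each replicate and P3 gave none. P1 was not uniform for Adrb3. Its cluster with Gng8 and Penk among the leading genes held 2.47 CPM (17 UMIs) in replicate 1 and 3.72 CPM (30 UMIs) in replicate 2. The other P1 clusters held 0.223 and 1.25 CPM in replicate 1, and 0.124 and 1.45 CPM in replicate 2.

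Cholinergic-like pelvic neurons held 1.43 CPM of Adrb3 in replicate 1 and 1.65 CPM in replicate 2. Noradrenergic-like neurons gave no UMI (adjusted p = 6.74e-05 in edgeR and 0.0599 in DESeq2). The cholinergic-like levels were 2.46-fold and 2.07-fold those that no UMI allows, without the counting error of the cholinergic-like UMIs. In the added fit of Stellate and Lumbar, noradrenergic-like neurons were lower by the log2 difference of -2.43 ± 0.744 (adjusted p = 0.0426). Stellate gave no Adrb3 UMI in its 54 cholinergic-like neurons and 16 UMIs (0.209 CPM) in its 2657 noradrenergic-like ones. All cholinergic-like UMIs of this fit thus came from Lumbar.

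Adrb1 (ENSMUSG00000035283, chromosome 19:56722199-56733113, plus strand, GRCm38), the receptor through which noradrenaline drives the heart, gave 59 UMIs. They were spread over glia (16), neurons (13), macrophages (13), fibroblasts (8), mural (5) and endothelial cells (4), and neurons did not exceed 0.0820 CPM in any library. Its level in neurons was at or near the limit of detection throughout.

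The other genes of adrenergic signalling were taken from a list of 48 genes covering ligand synthesis and removal, G proteins, effectors, receptor kinases, arrestins, regulators and channels. Of the 41 tested between neurons and glia, 31 were higher and 3 lower in neurons (74.3% of all genes passed), with a median log2 difference of 1.81, beside a median of 0.20 over all genes tested. That median of all genes was -0.09 without TMM scaling, and the share of called genes that were higher in neurons was then 46.2% in place of 58.1%. The receptor differences that passed were each larger in size than this shift. Higher in neurons by the widest margins were Slc6a2, the noradrenaline transporter (27.4 to 1612 CPM in neurons and 0.774 to 211 CPM in glia, log2 difference 4.64), Cacna1b, the N-type calcium channel that alpha2 receptors inhibit (87.7 to 116 CPM and 2.27 to 11.3 CPM, 4.63), and Slc18a2, the vesicular monoamine transporter (4.18). Lower in neurons were, among others, Grk5, a receptor kinase (-1.37), and Gnai2, a Gi subunit (-0.80).

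Between mural and endothelial cells 22 of the 41 tested genes of the list passed (40.7% of all genes did), 13 higher and 9 lower in mural cells. Highest in mural cells were Adcy5, an adenylyl cyclase (log2 difference 2.96), Rgs5 (2.89), which was itself among the genes that named the class, and Rgs4 (2.89), both regulators that shorten G protein signals. Lowest were Adcy4 (-2.93), another adenylyl cyclase, Arrb1 (-2.20), an arrestin that uncouples receptors, and Plcb1 (-2.19), a phospholipase acted on by Gq. In the mural against neuron comparison 35 of 41 passed (68.1% of all genes), 9 higher and 26 lower in mural cells, and between endothelial cells and glia 28 passed (58.1% of all genes), 14 in each direction. Of 44 tested between the pelvic transmitter classes 26 passed (21.5% of all genes), 13 in each direction, and the 7 called genes of ligand synthesis and removal were all higher in noradrenergic-like neurons, where Th, Dbh, Slc6a2 and Slc18a2 had named the class.

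The genes whose levels ran closest to each receptor over the 24 sums of library and class were found by Pearson's correlation of log2(CPM + 1) among 12533 genes. For Adra2a they were Gucy1b1 (r = 0.92), a subunit of the nitric oxide receptor, Rtn4rl1 (0.91) and Pde3a (0.91), a cyclic nucleotide phosphodiesterase. For Adra2c they were Flrt1 (0.89), Spire2 (0.87) and Ncam2 (0.87), and for Adra1b Gstt1 (0.79), Tmem53 (0.74) and Rhot1 (0.74). Adra1b reached the 10 CPM required only in the mural cells of Pelvic replicate 1 (12.8 CPM, 20 UMIs). Without the 26 Colec11-led cells it stood at 7.09 CPM there and would not have been included. The 24 sums share libraries and differ widely in depth, and the correlations are a description.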

How the data were processed

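Whole autonomic ganglia were measured by droplet-based single-cell RNA sequencing (10x Chromium, 3′ kits) in 6 libraries. The deposited files hold raw UMI counts per gene and cell barcode, which the authors made with Cell Ranger 6.0.1 on mm10 according to the submitters' processing notes. The receptors and the gene lists were chosen with earlier results of these data known.

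A droplet was kept if it had more than 1500 but fewer than 11000 genes and if mitochondrial counts made up less than 15%. By the study's rule, neurons were cells whose mean sctransform value (0.4.2) of Stmn2, Stmn3, Gap43 and Tubb3 exceeded 3. Those with a glial marker score of 1.1 or more were left out, which removed 250; the study also left out doublets with glia by markers, and the value of 1.1 was set here. Of all cells, 1030 lay within 0.2 of the first threshold. The other cells were clustered in each library (2000 variable genes, 30 principal components, 20 neighbours, Louvain at resolution 1) and named from at least 3 markers, and 747 were left without a class. No droplets were removed as doublets; 11.7% of droplets and 14.4% of neurons had mostly simulated doublets as neighbours, and their removal was an alternative. Neurons were clustered without the receptor genes.

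Counts were summed per library and class (at least 20 cells). Levels are UMI counts-per-million (CPM) with exact Poisson intervals at 95%, and shares of cells rest on UMIs of 1 or more; intervals, and the 3 counts that a 0 allows, cover counting error only. Classes were compared with edgeR 4.0.16 (quasi-likelihood, TMM, library as a block, 1 fit of the 4 classes), called at an adjusted p under 0.05 after Benjamini-Hochberg adjustment. The replicate is the library. In the fit of the 4 classes the p-values measure the spread between these libraries, which come from 5 ganglia and pooled pups. The fits of transmitter classes, including those added later, leave few residual degrees of freedom and take their spread largely from all genes. The pelvic transmitter classes were fitted over the 2 pelvic libraries; the fit of Stellate and Lumbar and the test of the difference between the 2 were added after the values were seen. The fit of the 4 classes and the pelvic fit were tested on simulated data, and the fits added later were not. Alternatives were DESeq2 1.42.0, other scalings, filters, class definitions, thinning, each library left out and, chosen after seeing the data, each round alone and the classes less a coeliac glial or a pelvic mural cluster.

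The rule for the genes named was the 8 receptors, the 3 called genes of the pathway list with the widest difference in each direction of neurons against glia and of mural against endothelial cells, the 3 genes most like each receptor that reached 10 CPM, and class markers; the cluster genes were named after their values were seen. Gene positions are from GENCODE M21 and promoter sequences from RefSeq (GRCm38.p6). Some genes and 1 allele that the rule or the labels name are not reported here.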

Additional observations from a re-analysis of the deposited data

Results flagged for a closer look

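Adra2a differed in direction between transmitter classes: its noradrenergic minus cholinergic log2 difference was 1.96 larger in pelvic neurons than in stellate and lumbar neurons (adjusted p = 0.00326, edgeR's interaction test over 4 libraries), with the noradrenergic-like class higher in 2 of 2 pelvic libraries and lower in Stellate and Lumbar. The stellate and lumbar cholinergic-like classes rest on 54 and 42 neurons. Both Stellate clusters in that class also met the noradrenergic rule, which was applied second. The cholinergic-like classes leave out a Stellate cluster of 199 neurons with Vip, Cartpt and Sst among its leading genes. That cluster was named noradrenergic-like and held Adra2a at 23.5 CPM. The interaction test was added after the values of these libraries were seen. Adra2c in Sphenopalatine had a log2 ratio of neurons to glia of -2.75, while in the other 5 libraries the ratio was between 0.66 and 1.66; this difference was not tested, since Sphenopalatine is a single library.

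In cells outside the comparisons, fibroblast-like cells held Adra2a at a median of 63.8 CPM over 6 libraries, from 19.1 to 75.9 CPM and with 2348 UMIs in all. Stmn2 in fibroblasts was 0.959% to 11.3% of its neuronal level, and Adra2a 42.9% to 614%. A pelvic cluster led by Chga, a gene of secretory granules, that was given no class (155 and 34 cells) held Adra2c at a median of 21.0 CPM over 2 libraries, 22.0 CPM from 23 UMIs and 20.0 CPM from 13 UMIs; Th and Chgb were among its leading genes in 2 of 2 libraries.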

How the results depend on the processing

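Across the alternatives, 445 of 488 log2 differences of receptors and named pathway genes counted as unchanged. These kept their direction and their side of the threshold. Pelvic values without 1 pelvic library have no test, and they counted as unchanged if they kept their direction and moved by less than 1 SE. Of the rest, 26 lost a call, 12 gained one and 1 pelvic value moved further. Reversed were Adra2c between mural and endothelial cells without Pelvic replicate 1 (0.14) and the Adra2c difference between the transmitter contrasts with every gene kept (-0.10), without Lumbar (-0.68) and without Pelvic replicate 2 (-0.12); with a library left out the first ran from -2.14 (without Sphenopalatine) to 0.14 and the second from -0.68 to 0.36, neither passed in any setting, and the cause was not tested. Called genes numbered 3046 between the pelvic transmitter classes, 1553 with DESeq2, 672 with Stellate added and 864 with Stellate and Lumbar added; with Stellate added Adra2a was no longer called (0.38, adjusted p = 0.716), nor with both (0.16, adjusted p = 0.869). Without TMM scaling the share of calls that were higher in mural cells than in neurons was 49.5% in place of 39.9%. In round 2 alone 3464 genes passed between mural and endothelial cells in place of 5570. For the difference between the transmitter contrasts 763 passed, 1574 with every gene kept, and 417 to 1782 with a library left out, lowest without Pelvic replicate 1 and highest without Stellate; without Lumbar 1167 passed. With 1 library left out, 9703 to 9890 genes passed between neurons and glia, 8463 to 8957 between mural cells and neurons, 4518 to 5224 between mural and endothelial cells and 7227 to 7469 between endothelial cells and glia. Without 1 pelvic library the pelvic comparison is a value with no test. Of the library-by-class shares of cells with a UMI, 40 reached 5%, 14 after thinning and 19 with 2 UMIs required, which both lower the counts used. Removing doublets, keeping neurons at or above the glial threshold, taking neurons by cluster or lowering the droplet filter left the number of levels of at least 10 CPM at 23 or 24, and thinning gave 27, although thinning moved 10 of the 23 levels outside their counting intervals. The library was the block throughout. Cell classes were thus compared within libraries. No pairing of libraries was possible because replicate numbers are shared only by different ganglia, and only the pelvic ganglion has 2. Depth limits Adra1a, Adra1d and Adrb1, and every receptor in the vessels of Coeliac and Lumbar, where 27 to 48 cells were counted.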

Other observations

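Among fibroblast-like cells, Adra2a was highest in clusters with Igfbp6 or Cldn1 among their 10 leading genes. These held 137 CPM in Pelvic replicate 2, 116 CPM in Lumbar, 110 CPM in Coeliac, 98.1 CPM in Pelvic replicate 1, 58.4 CPM in Sphenopalatine and 44.1 CPM in Stellate, against 43.2, 24.6, 43.8, 11.7, 28.7 and 15.2 CPM in the other fibroblasts of the same libraries. They were higher in 6 of 6 libraries, and no test is given because the clusters were singled out after their values were seen. The other fibroblasts were not uniform. In Pelvic replicate 2 their clusters ran from 2.21 CPM, in 58 cells with Acta2 at 2700 CPM, to 79.4 CPM. In Pelvic replicate 1 they included 20 cells led by Upk3b and Krt19 that gave no Adra2a UMI. The other 7 receptors together gave few UMIs in fibroblasts, 25 of Adra2c being the most.

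Macrophage-like cells were the class with an Adrb1 UMI in every library. The levels were 7.14 CPM in Lumbar, 4.71 CPM in Coeliac, 2.21 CPM in Sphenopalatine, 2.19 CPM in Stellate, 1.00 CPM in Pelvic replicate 1 and 0.947 CPM in Pelvic replicate 2, from 13 UMIs in all.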
